A study of Drosophila melanogaster with 12 samples.

Results

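The comparison described here sets Drosophila melanogaster Kc cells depleted of CP190 by RNA interference (RNAi) against Kc cells given control RNAi, both after 3 h in the steroid hormone 20-hydroxyecdysone (20HE). Its members are 4 of the 12 arrays of the series, chosen by their titles, with 2 biological replicates of CP190 RNAi at 3 h and 2 of control RNAi at 3 h, and all 16637 transcripts on the arrays were tested. The control RNAi targeted beta-galactosidase, an unrelated sequence. The other 8 arrays hold the same RNAi pair at 0 h and at 48 h of 20HE, and they enter here through a common estimate of the spread and as the values set beside those at 3 h. Kc is an embryonic line, here grown in serum-free medium. The extraction protocol also names Mbn2 cells, while every title says Kc. The sources used here give no dose or duration of RNAi and no concentration of hormone.

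CP190 is a zinc-finger protein with a BTB domain. It is brought to chromatin by DNA-binding insulator proteins such as Su(Hw), CTCF and BEAF-32, and it is found both at insulators and at the promoters of many active genes. 20HE binds the heterodimer of the ecdysone receptor EcR and Usp, which directly induces early genes, many of them encoding transcription factors, and these in turn act on late genes. A few hours of hormone therefore falls in the early phase of this cascade.

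Transcripts carry FlyBase transcript identifiers, and the deposited table holds no gene names. The gene table of RefSeq lists 44 of them, 16 under 1 gene and 28 under several genes. The other 16593 are given by identifier or in counts. No identifier for Cp190, EcR, usp, Eip74EF, Eip75B or br was among them. How far the targeted RNA was depleted, the hormone receptor genes and the markers of Kc or other cells were therefore not analysed here. Replicate arrays at 3 h differed by an SD of 0.167 on the log2 scale in CP190 RNAi cells and 0.182 in control cells. A probe set of random sequence, the background mark of the array, read 415 and 414 on the CP190 arrays at 3 h and 425 on both control arrays, beside array medians of 1136 to 1175. Levels within 1.5-fold of it are called near background here. Folds that begin or end there may be understated, since background signal remains in the values.

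At 3 h of 20HE, 721 transcripts were higher and 312 lower in CP190 RNAi cells than in control RNAi cells (limma, adjusted p under 0.05). Together these are 1033 transcripts, or 6.21% of those tested, with 4.33% higher and 1.88% lower. The rises were also the larger changes. Their median log2 change was 0.66 and that of the falls -0.49, and 147 rises but 34 falls, 1.09% of all transcripts together, were at least 2-fold. Of all 16637 transcripts, 182 differed by 2-fold or more in the group means, and 181 of these were past the threshold. Only 8 changes, 6 of them rises, reached 4-fold. The 2 groups of replicates did not overlap for any of the 1033, which the call on these same arrays itself favours. Among all transcripts 47.7% had groups that do not overlap. A fit that also holds the replicate number as a block called 2091 (12.6%), 1223 higher (7.35%) and 868 lower (5.22%). The block alters the errors and not the log2 changes, and 181 of its calls were at 2-fold or more. Without CP190 3 h replicate 1 the count was 460 (363 higher, 97 lower), without CP190 3 h replicate 2 it was 661 (509 and 152), and without control 3 h replicate 2 it was 513 (380 and 133). Centring each array on its median gave 622 higher and 473 lower, so rises made up 56.8% of the calls on that scale and 69.8% as deposited, while the median change of all transcripts was -0.059 and -0.019.

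Among transcripts measured above background in both groups, with replicates that do not overlap, the 2 largest rises were FBtr0083371 and FBtr0084647. FBtr0083371 read 9461 and 6076 on the CP190 RNAi arrays at 3 h, against 1504 and 1182 on the control arrays. Its log2 change was 2.51 ± 0.26 (SE, 5.69-fold, adjusted p = 1.43e-04). FBtr0084647 read 17953 and 13509 in CP190 RNAi cells and 3212 and 2496 in control cells, a log2 change of 2.46 ± 0.19 (5.50-fold, adjusted p = 2.2e-05). Both rises were already present without hormone. At 0 h FBtr0083371 read 11588 and 6720 in CP190 RNAi cells and 1618 and 1175 in control cells (log2 change 2.68 ± 0.26). FBtr0084647 read 15324 and 10490 against 2469 and 2139 at 0 h (2.46 ± 0.19). These 2 transcripts had like rises at 3 h and went different ways with longer hormone, as described further down.

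The 2 largest falls by the same rule were FBtr0086519 and FBtr0075552. FBtr0086519 read 1667 and 1662 in CP190 RNAi cells, against 8369 and 8596 in control cells, a log2 change of -2.35 ± 0.11 (adjusted p = 1.86e-06). Its level was nearly flat over time in both arms, with 1617 and 1775 in CP190 RNAi cells and 8735 and 7428 in control cells at 0 h, and 1623 and 1922 against 7229 and 8556 at 48 h. FBtr0075552 read 5444 and 5517 in CP190 RNAi cells and 18482 and 22398 in control cells at 3 h, a log2 change of -1.89 ± 0.19 (adjusted p = 1.14e-04). Unlike FBtr0086519 it responded to the hormone in both arms: from 0 to 3 h its log2 change was 1.47 ± 0.19 in CP190 RNAi cells (adjusted p = 0.00268) and 1.82 ± 0.19 in control cells (adjusted p = 3.36e-04). These hormone changes use the same 3 h arrays as the CP190 comparison. At 0 h it already stood at 1776 and 2209 in CP190 RNAi cells, against 5818 and 5737 in control cells, and the CP190 effect did not pass the test of a difference between 3 h and 0 h (-0.35, 95% interval -0.93 to 0.23).

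**Figure D1:**
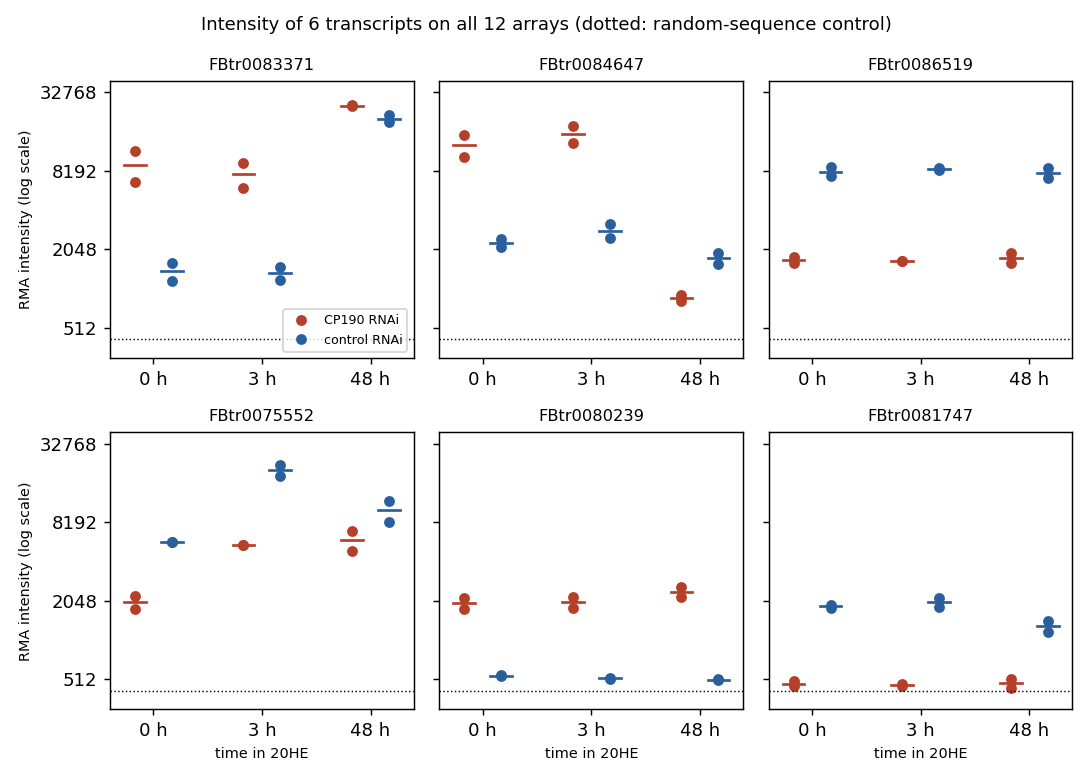
RMA intensity (log scale) of 6 transcripts on the 12 arrays by time in 20HE, with CP190 RNAi to the left of control RNAi at each time; points are arrays, bars are means of 2 arrays, and the dotted line is the mean of the random-sequence control. At 3 h the arms do not overlap in any panel, as the rules that picked these transcripts required. For FBtr0084647 the order of the arms is turned round at 48 h, and for FBtr0083371 all arrays read 19290 or more at 48 h.

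Changes that crossed the background level were few in the strict sense. One transcript, FBtr0080239, was near background on both control arrays at 3 h and over 4-fold above the random control on both CP190 arrays, with 2197 and 1800 in CP190 RNAi cells and 515 and 526 in control cells (log2 change 1.93 ± 0.12, at least 3.82-fold, adjusted p = 4.06e-06). The other direction held 2 transcripts. Of these FBtr0081747 had 473 and 454 in CP190 RNAi cells and 2136 and 1846 in control cells (-2.10 ± 0.12, at least 4.29-fold lower, adjusted p = 2.05e-06). Neither pattern was particular to 3 h. Without hormone the log2 change was 1.85 ± 0.12 for FBtr0080239 and -1.97 ± 0.12 for FBtr0081747. With near background widened to 2-fold of the random control, 15 and 4 transcripts met the 2 definitions. Without the demand for 4-fold, 111 of the 721 rises started from control values near background. Of the 312 falls, 42 ended near it in CP190 RNAi cells. Among all 16637 transcripts, 6351 were near background on both control arrays at 3 h and 6155 on both CP190 arrays.

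The calls were spread over all measured levels. Transcripts were classed by their mean over the 12 arrays. Of the 6327 within 1.5-fold of the random control, 70 (1.11%) were called at 3 h. The share was 10.9% of the 2868 transcripts between 1.5 and 4-fold, 8.96% of the 4386 between 4 and 16-fold and 8.38% of the 3056 over 16-fold. Rises outnumbered falls in every class, with 52 against 18, 229 against 85, 262 against 131 and 178 against 78 from the dimmest to the brightest. Most 2-fold changes lay between 4 and 16-fold, with 83 rises and 16 falls of that size. Over 16-fold there were 22 and 7.

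**Figure D2:**
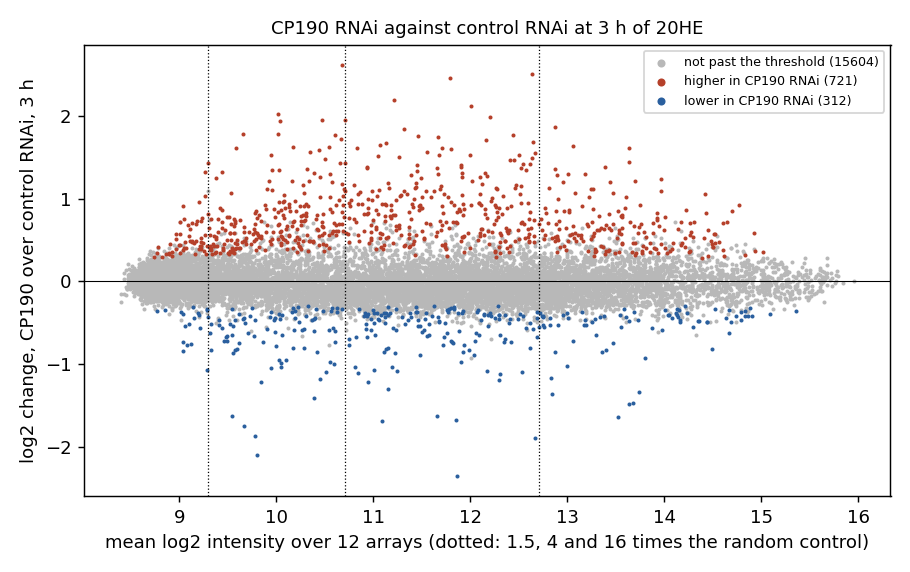
Each point is a transcript; the x axis is its mean log2 intensity over 12 arrays and the y axis its log2 change in CP190 over control RNAi at 3 h. Red points (721) were higher and blue points (312) lower past the threshold, and the red points reach farther from 0 across the middle of the intensity range.

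The 2 replicate pairs were also set beside each other. The CP190 minus control difference of replicate 1 and that of replicate 2 come from separate arrays. They had the same sign for all 1033, which follows from groups that do not overlap and adds nothing to it. Across all 16637 transcripts, which are not independent, these 2 differences correlated with Pearson's r of 0.735 and Spearman's rho of 0.535. Of the 181 called changes of 2-fold or more, 130 were 2-fold in each replicate pair taken alone, 108 of them rises and 22 falls.

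The 3 h effect was then set beside the CP190 effect in cells without hormone, which uses other arrays. At 0 h, 7.34% of all transcripts were called, 4.45% higher and 2.89% lower, and 15.7% were called with the replicate block. Of the 721 transcripts higher at 3 h, 719 also had a positive value at 0 h and 568 (78.8%) were called higher there, with a median log2 change of 0.66 at 3 h and 0.63 at 0 h. Of the 312 lower at 3 h, 300 were negative at 0 h and 216 (69.2%) were called lower, with medians of -0.49 at 3 h and -0.45 at 0 h. Seen from the other side, 76.8% of the 740 rises and 44.9% of the 481 falls called at 0 h were called the same way at 3 h. The medians at 3 h belong to transcripts picked on those arrays, which favours larger sizes there.

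The difference between the 3 h and 0 h effects was tested directly. By limma 0 transcripts passed, the smallest adjusted p was 0.59, and 403 (2.42%) had an unadjusted p under 0.05. This is below the share that unchanged transcripts would give on average. The unadjusted count was 724 in the limma fit with the replicate block. The 95% interval of that difference had a median half-width of 0.34 among the 1033 transcripts called at 3 h, and lay wholly between -1 and 1 for 1004 of them and between -0.5 and 0.5 for 598. Differences smaller than these widths cannot be seen with these arrays, and the adjusted test needs larger ones. With the replicate block, 4 transcripts (0.024%) passed, all with a lower CP190 effect at 3 h than at 0 h, and without control 0 h replicate 2 there was 1. Of these 4, FBtr0076538 and FBtr0076539, picked after that count was seen, had the largest differences. FBtr0076538 read 4468 and 3551 in CP190 RNAi cells and 4620 and 4488 in control cells at 3 h, which lie close together without overlap, while at 0 h it read 3969 and 3431 against 1889 and 1318. The CP190 effect was thus -0.19 ± 0.21 at 3 h and 1.23 ± 0.21 at 0 h on the log2 scale, a difference of -1.42 (adjusted p = 0.00361 with the block; without it the test did not pass). FBtr0076539 had a difference of -1.41 (adjusted p = 0.00371 with the block), with 5921 and 5170 against 6167 and 5709 at 3 h and 5145 and 4365 against 2340 and 1553 at 0 h. In both, the level in CP190 RNAi cells without hormone was nearer to that of control cells at 3 h than to that of control cells at 0 h. The 2 identifiers are consecutive and their readings run near parallel over the 12 arrays, so they may not be separate measurements.

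At 48 h, 5.19% of all transcripts were called, 3.17% higher and 2.02% lower (9.94% with the replicate block), and the resemblance to 3 h was looser. Of the 721 rises at 3 h, 606 were positive at 48 h and 196 (27.2%) were called higher, with a median log2 change of 0.26 at 48 h. Of the 312 falls, 265 were negative and 91 (29.2%) were called lower, with a median of -0.23. In the opposite direction at 48 h were 12 of the rises and 6 of the falls, and for all 18 the difference between the 2 times passed its own test.

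**Figure D3:**
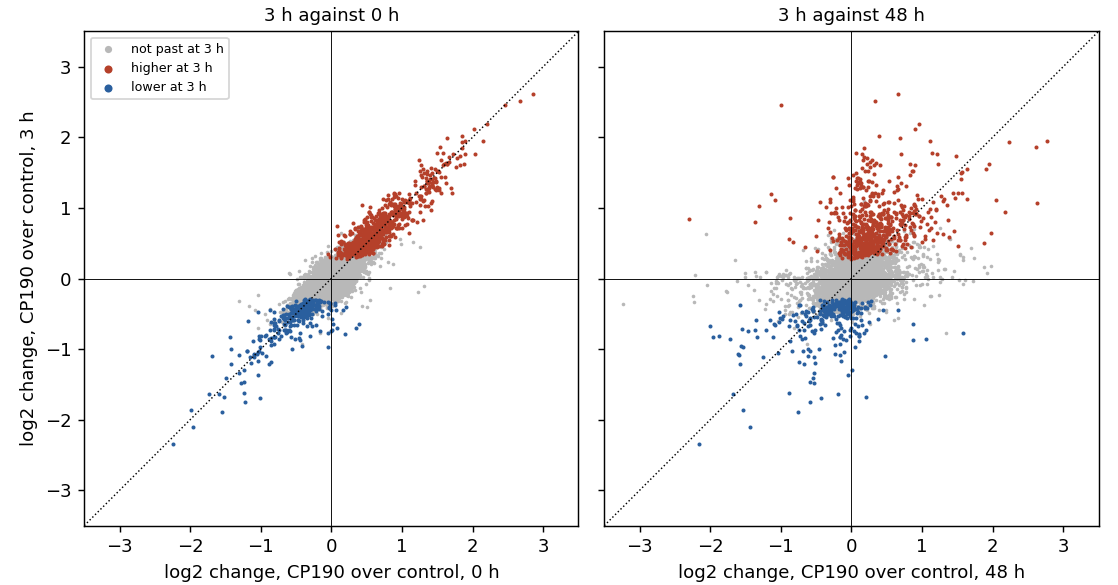
Log2 change in CP190 over control RNAi at 3 h (y axis) against the same at 0 h (left, x axis) and at 48 h (right, x axis) for 16637 transcripts; red and blue mark the 721 rises and 312 falls called at 3 h and the dotted line marks equal effects. At 0 h the called points follow the line, and at 48 h many lie near 0 on the x axis, with 12 rises and 6 falls called the other way.

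Divided by all 3 times, the 721 rises at 3 h held 180 that were called at 0, 3 and 48 h, 388 called at 0 and 3 h, 16 called at 3 and 48 h and 137 called at 3 h alone. The 312 falls held 80, 136, 11 and 85 in the same order. The transcripts called at 3 h alone had small effects: a median log2 change of 0.48 at 3 h and 0.28 at 0 h for the rises, and -0.43 at 3 h and -0.25 at 0 h for the falls, and 2 of these rises and 0 of these falls were at least 2-fold. None of them passed the test of a difference between 3 h and 0 h, so no transcript called at 3 h alone was shown to have another effect without hormone. The 388 rises called at 0 and 3 h had medians of 0.71 at 3 h, 0.68 at 0 h and 0.18 at 48 h, and 102 of them passed the test of a difference between 3 h and 48 h.

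The CP190 effect at 3 h differed from that at 48 h for 327 transcripts (1.97% of those tested), 192 with a higher effect at 3 h (1.15%) and 135 with a lower one (0.811%), and 158 of them by 2-fold or more. With the replicate block the count was 760 (4.57%), with 448 (2.69%) higher and 312 (1.88%) lower. It was 184 without CP190 3 h replicate 1, 203 without control 3 h replicate 1 and 193 without control 48 h replicate 2. The 192 had median effects of 0.70 at 3 h, 0.66 at 0 h and -0.25 at 48 h. They included 99 that were higher at 3 h and not past the threshold at 48 h, 64 that were not past it at 3 h and lower at 48 h, and 12 that were higher at 3 h and lower at 48 h. The 135 had medians of -0.096 at 3 h and 0.72 at 48 h, and 89 of them were called at 48 h as higher and not at 3 h.

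Described next are FBtr0083371 and the 2 transcripts with the largest such differences in each direction, among those measured on all arrays compared. A difference of this kind requires a change between 3 h and 48 h in at least 1 arm. FBtr0084647 was 5.50-fold higher in CP190 RNAi cells at 3 h and lower there at 48 h, with 916 and 824 in CP190 RNAi cells and 1580 and 1917 in control cells at 48 h (-1.002 ± 0.193, adjusted p = 0.00956). The difference of the 2 effects was 3.46 ± 0.27 (adjusted p = 1.56e-04). FBtr0083371 kept its order, but at 48 h it read 25678 and 26173 in CP190 RNAi cells and 19290 and 21913 in control cells, and that effect of 0.33 ± 0.26 did not pass (adjusted p = 0.627; difference from 3 h 2.17 ± 0.36, adjusted p = 0.009). Its control level had risen by 3.90 on the log2 scale between 0 and 48 h, so the small gap at 48 h lies beside a high level in both arms.

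FBtr0076243 had 693 and 864 in CP190 RNAi cells against 1005 and 992 in control cells at 3 h (-0.37 ± 0.18, adjusted p = 0.311). At 48 h it had 1354 and 1288 against 15277 and 10208 (-3.24 ± 0.18), and the difference was 2.87 ± 0.26 (adjusted p = 2.24e-04). The high values at 48 h were those of control cells. In the other direction, FBtr0086699 had 654 and 839 in CP190 RNAi cells and 1284 and 1253 in control cells at 3 h (-0.78 ± 0.21, adjusted p = 0.0564 and 0.00318 with the replicate block), and 8406 and 11366 against 2961 and 5036 at 48 h (1.34 ± 0.21, difference -2.12 ± 0.30, adjusted p = 0.00331). FBtr0100135 was lower at 3 h, with 1773 and 1779 against 3299 and 3140 (-0.86 ± 0.12, adjusted p = 0.00137), and higher at 48 h, with 12549 and 15091 against 5757 and 7544 (1.06 ± 0.12, difference -1.92 ± 0.17, adjusted p = 2.49e-04).

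**Figure D4:**
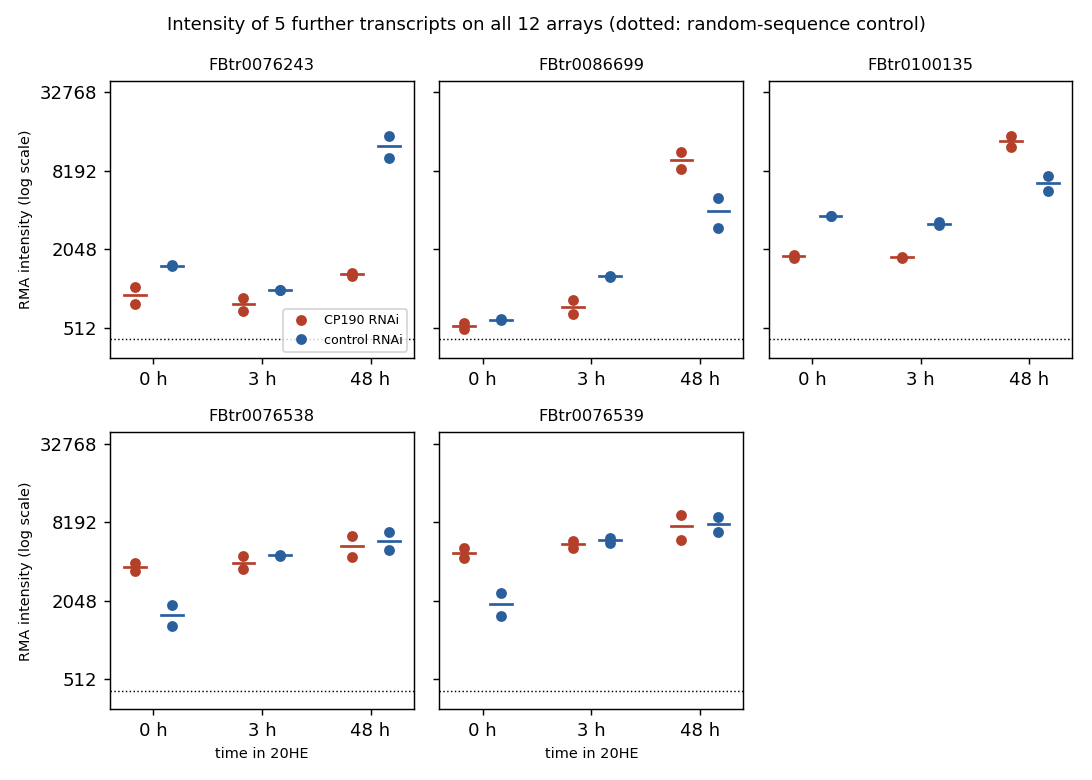
RMA intensity (log scale) of 5 transcripts on the 12 arrays by time in 20HE, with CP190 RNAi to the left of control RNAi; points are arrays, bars are means of 2 arrays and the dotted line is the random-sequence control. The upper 3 differ in CP190 effect between 3 h and 48 h, and in the lower pair the arms are apart at 0 h and close together at 3 h.

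The last question was where the 3 h calls lie among hormone-responsive transcripts. To keep the arrays apart, hormone response was taken as 48 h over 0 h within control RNAi, which shares no array with the 3 h comparison, although both tests use 1 estimate of each transcript's spread. By that measure 2173 transcripts (13.1%) were raised and 2543 (15.3%) lowered by 20HE. Of the raised, 334 (15.4%) were called at 3 h of CP190 RNAi, 242 higher and 92 lower. Of the lowered, 250 (9.83%) were called, 168 higher and 82 lower. Of the 11921 that did not pass at 48 h, 449 (3.77%) were called, 311 higher and 138 lower. The share over all transcripts was 6.21%. With the replicate block in both fits these shares were 24.3% of 2633 raised (15.8% of all transcripts), 19.6% of 3360 lowered (20.2%) and 7.43% of the rest, beside 12.6% over all. Without CP190 3 h replicate 1 the 3 shares were 7.40%, 5.12% and 1.51%, and without control 3 h replicate 2 the share of the lowered was 4.90%.

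Level moves with these classes, since 5953 of the 11921 non-responding transcripts were within 1.5-fold of the random control, against 260 of the raised and 114 of the lowered. Its part was therefore looked at within classes of level. Between 4 and 16-fold above the random control, 18.7% of 793 raised transcripts were called at 3 h, against 8.56% of 1122 lowered and 6.03% of 2471 others. Over 16-fold the shares were 17.4% of 536, 8.30% of 831 and 5.57% of 1689. Between 1.5 and 4-fold they were 14.9% of 584, 15.8% of 476 and 8.41% of 1808, so that raised and lowered transcripts stood close together there. Within 1.5-fold the lowered stood highest, at 8.77% of 114, against 2.31% of 260 raised and 0.907% of 5953 others. Among the brightest raised transcripts, 78 were higher and 15 lower in CP190 RNAi cells at 3 h. Transcripts with hormone changes of 2-fold or more had higher shares in both directions: 145 of 615 raised (23.6%; 102 higher, 43 lower) and 64 of 236 lowered (27.1%; 48 higher, 16 lower).

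**Figure D5:**
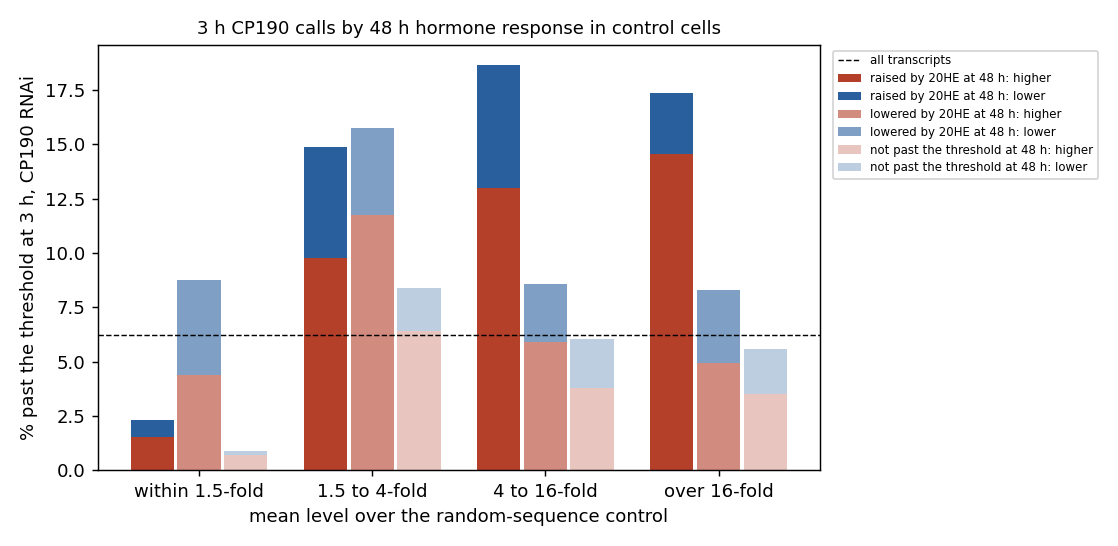
Share of transcripts (%) called at 3 h of CP190 RNAi, higher (red) and lower (blue) stacked from 0, by mean level over the random-sequence control (x axis) and by their response to 48 h of 20HE in control cells (raised, lowered, not past the threshold, left to right and dark to pale). Above 4-fold the raised class stands highest, at 18.7% and 17.4%, and the dashed line is the 6.21% of all transcripts.

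Among the 16 transcripts with 1 gene name, 1 was higher and 0 lower at 3 h, with a median log2 change of 0.052, against -0.019 over all transcripts. The 1 rise was CG31178, with 676 and 666 in CP190 RNAi cells and 465 and 540 in control cells (0.42 ± 0.11, adjusted p = 0.0391). Both control values lay near background, and the call was lost in 9 of the 18 other fits made of it (adjusted p of 0.0511 to 0.214). Of the chromatin genes listed for the analysis, 3 of 14 could be looked up and 0 passed. HDAC3, a histone deacetylase, had 5303 and 5858 in CP190 RNAi cells and 6079 and 6828 in control cells (-0.21 ± 0.11, adjusted p = 0.328). For kis, a chromatin remodeller of the trithorax group, the values were 18812 and 16339 against 16645 and 16017, which overlap (0.10 ± 0.087, adjusted p = 0.605). His4r, which encodes histone H4, had 26601 and 26084 against 27238 and 26441 (-0.027, 95% interval -0.19 to 0.13). SuUR, a chromatin protein of under-replicated regions, had 5080 and 5201 against 4931 and 4695 (0.095 ± 0.11, adjusted p = 0.717).

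The other named genes also stayed under the threshold. Both Wdr24 and mio encode parts of GATOR2, a complex that acts on the growth kinase TORC1. Wdr24 had 1258 and 1398 in CP190 RNAi cells against 1419 and 1716 in control cells (-0.23, 95% interval -0.51 to 0.04), and mio had 1835 and 2000 against 2090 and 2157 (-0.15, -0.32 to 0.03). In neither did the arms overlap, as for 47.7% of all transcripts. The structural genes alpha-Spec, of the membrane skeleton, and LanA, a laminin chain of the basement membrane, had changes of 0.21 (95% interval 0.010 to 0.41, adjusted p = 0.246) and 0.047 (-0.12 to 0.22). LanA read 50163 and 45986 in CP190 RNAi cells and 45001 and 48049 in control cells, near the top of the scale, where differences can be compressed. Fatp1, a fatty acid transport protein, had 12960 and 13124 against 12954 and 13859, with the CP190 values inside the control range (-0.039, 95% interval -0.33 to 0.26). NaPi-III, a phosphate transporter, had 0.090, the ubiquitin-activating enzyme gene Uba1 -0.055, rdx, a substrate adaptor of a Cullin ubiquitin ligase, 0.15, sle, a nucleolar protein, 0.063, CG16974 0.057 and fend -0.18, the last near background on all 4 arrays.

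For the 28 identifiers listed under several genes, 1 array value stands for all of them. They include known dicistronic messages, which carry the reading frames of a pair of genes in 1 RNA, as those of Mocs2A and Mocs2B or of moi and Tgs1 do. At 3 h 0 of the 28 passed the threshold, with a median log2 change of -0.078 and a range of -0.31 to 0.24, and with the replicate block 1 was lower. That one was the message of CG42497 and Tim10, a chaperone of the mitochondrial intermembrane space, with 15255 and 14980 in CP190 RNAi cells against 18313 and 19214 in control cells (-0.31 ± 0.10, adjusted p = 0.123, and 0.0437 with the block). The message of Sws1 and Rad1, of which Rad1 belongs to a checkpoint clamp, had 3069 and 3852 against 3977 and 4444 (-0.29 ± 0.17, adjusted p = 0.405), and that of CG45089 and the respiratory complex I subunit ND-MNLL 3891 and 4550 against 4860 and 5466 (-0.29 ± 0.16). At the other end, the message of CG10570 and CG42502 had 8200 and 8335 against 6259 and 7817 (0.24 ± 0.098, adjusted p = 0.211). The messages for moi, a telomere-capping protein, and Tgs1, a cap methyltransferase (-0.071), for lmgA and lmgB (0.078) and for the molybdopterin synthase subunits Mocs2A and Mocs2B (-0.036) lay close to 0. The median 95% interval of these 28 had a half-width of 0.26. The adjusted test needs larger changes than that, since -0.31 and -0.29 did not pass either.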

How the data were processed

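The authors deposited 1 table of intensity values, with 1 value per transcript and array, made with RMA per the submitters' processing notes. This method subtracts background, gives all arrays 1 distribution and combines probes into 1 value. Its version, the annotation release and the build: not given in the sources used here. Values are linear, and their log2 was taken here, with no filter or pseudocount. The 1 random-sequence row was kept out of the tests. Identifiers were looked up in the RefSeq gene table of assembly GCF_000001215.4, and no coordinate or sequence was used.

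In limma 3.58.1 under R 4.3.3, lmFit and eBayes gave 1 mean to each of the 6 groups, leaving 6 residual degrees of freedom over the 12 arrays. Tests were two-sided, p-values were adjusted by Benjamini and Hochberg over the 16637 transcripts of a comparison, and 0.05 was the threshold. The ± of a log2 change is its limma standard error, and its precision is limited by having 2 arrays per group. The fit was also run on simulated data with independent noise on each array. That simulation cannot speak to the correlation of replicates given next. Replicate differences correlated between groups by 0.147 to 0.608 over 15 pairs of groups, so equal replicate numbers were taken as pairs, on the data alone; the labels do not say what they share. Named transcripts were those with a gene name and, for the others, the 2 largest changes in each direction of a comparison. These had to be over 1.5-fold of the random control and under an intensity of 32768 on the arrays compared. For comparisons of 2 groups, replicates that do not overlap were also required. To these was added 1 transcript in each direction near background in 1 arm. The messages listed under several genes were added after their values were seen. The comparison, the lists and the rules were chosen with earlier results of these data known. Besides the 3 chromatin genes, 4 further lists (insulator proteins, 20HE genes, RNA interference genes, heat shock genes) and the cell type markers had 0 members that could be looked up. Alternatives are given in the closing section.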

Additional observations from a re-analysis of the deposited data

Results flagged for a closer look

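The CP190 effect differed between 3 h and 48 h, by the test of that difference, for 327 transcripts. Among the transcripts described, the log2 effect at 3 h minus that at 48 h was 2.17 for FBtr0083371, 3.46 for FBtr0084647 and 2.87 for FBtr0076243. It was -2.12 for FBtr0086699 and -1.92 for FBtr0100135. For FBtr0084647 and FBtr0100135 the effect passed its threshold at both times and in opposite directions. The cause of these differences was not tested. Groups of 2 arrays are too small for a search for single outlying arrays.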

How the results depend on the processing

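Counts at 3 h moved most with the pairing and with single arrays. With the replicate block they were 2091 at 3 h (1223 higher, 868 lower), 2614 at 0 h, 1654 at 48 h, 4 for 3 h minus 0 h and 760 for 3 h minus 48 h. All 1033 calls at 3 h stayed past the threshold in that fit, which leaves each log2 change as it was. Leaving out 1 of the 12 arrays gave 460 to 1115 calls at 3 h (363 to 757 higher, 97 to 358 lower), 537 to 1452 at 0 h, 483 to 927 at 48 h, 0 to 1 for 3 h minus 0 h and 184 to 336 for 3 h minus 48 h. Of the 460 calls without CP190 3 h replicate 1, 453 were among the 1033. Centring each array gave 473 lower at 3 h, and a fit restricted to the 4 arrays of a comparison gave 866 at 3 h and 553 at 0 h. In no fit did a 3 h call turn its direction, but this could hardly come out otherwise. Most of these fits leave the 3 h log2 changes as they were. The replicates of all 1033 calls did not overlap, so leaving 1 array out could not turn them. Widening near background to 2-fold of the random control gave 19 transcripts that crossed it, against 3. The order of the shares by hormone class (raised, lowered, neither) held in 18 of 18 other fits, added after seeing the data, with 7.40 to 24.3%, 4.90 to 19.6% and 1.51 to 7.43%. The 6 transcripts shown by array for 3 h, and the differences between 3 h and 48 h of FBtr0084647, FBtr0076243, FBtr0086699 and FBtr0100135, passed in all 19 alternatives. That of FBtr0083371 was not run under them. The fits behind the order of the hormone classes share most of their arrays and are not separate checks. That order is the one over all levels. In the 2 level classes under 4-fold of the random control, and among hormone changes of 2-fold or more, the lowered had the larger share. The causes of the shifts between fits were not tested. The 2 arrays per group and the background level limit what can be seen among dim transcripts.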
